A study of Homo sapiens with 4 samples.

Results

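The miR-7 arms were read in cortical interneurons that had been differentiated in culture from H1 human embryonic stem cells (hESCs), an established stem cell line. They comprised 3 of the 2656 mature miRNAs in the table of counts, namely hsa-miR-7-5p and the arms that tell its precursors apart, hsa-miR-7-1-3p and hsa-miR-7-2-3p (the prefix for human is left out below). They were taken by name, and all 3 passed the filter on low counts that left 863 miRNAs for testing. Small RNA libraries had been made from 2 cultures kept in neuronal maturation medium with ethanol at around 50 to 100 mM for 7 days (Ethanol-exposed rep 1 and rep 2) and from 2 cultures kept for 7 days without ethanol (Ethanol-unexposed rep 1 and rep 2). Per the study's methods, the exposed cultures then spent a further day without ethanol before RNA was taken. All cultures came from the same stem cell line, and nothing in the labels or methods says whether the duplicates were separate differentiations, so the P values measure only the spread between these samples, which may be technical.

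miRNAs are short RNAs that guide Argonaute proteins to mRNAs through pairing of the seed, the bases near their 5′ end. Each precursor hairpin yields a 5p and a 3p arm, of which one (the guide) is usually loaded and the other (the passenger) is usually degraded. miR-7-5p is a deeply conserved guide that is known for high levels in neurons and in endocrine cells. The circular RNA CDR1-AS carries many binding sites for it and the long noncoding RNA Cyrano triggers its degradation. In humans the same guide comes from MIR7-1, MIR7-2 and MIR7-3, so that reads of miR-7-5p cannot be assigned to a gene, whereas reads of the 3p arms can.

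The mature sequences are shown because all of the assignments below rest on them. They were read from RefSeq (GRCh38.p14), which held all 3, and the capitals mark the seed, bases 2 to 8.
miR-7-5p: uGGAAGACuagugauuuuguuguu
miR-7-1-3p: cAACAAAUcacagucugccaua
miR-7-2-3p: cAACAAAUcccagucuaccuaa
In that reference, miR-7-5p was the only 1 of 2370 mature human miRNA names with the seed GGAAGAC, and the seed AACAAAU was held by the 2 3p arms alone. The 3p arms were identical at 18 of 22 positions. Counted from 1 at the 5′ end of miR-7-1-3p, the differences were A10C, G17A, A20U and U21A, all of them outside the seed.

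MIR7-1 lies on the minus strand of chromosome 9, at chr9:83969748-83969857 of GRCh38 (GENCODE 29), within HNRNPK, which codes for an abundant RNA-binding protein. It falls in an intron of 6 of the 7 HNRNPK transcripts that span it and overlaps an exon of the other. RefSeq places miR-7-1-3p at chr9:83969771-83969792 and miR-7-5p of this gene at chr9:83969811-83969834. MIR7-2 is at chr15:88611825-88611934 on the plus strand, in no host gene, with miR-7-2-3p at chr15:88611896-88611917. MIR7-3 is at chr19:4770670-4770779 on the plus strand, in an intron of all 9 transcripts of the long noncoding RNA gene MIR7-3HG that span it. The hairpins of the latter genes follow, with the mature arms in capitals, to show that the 24 bases of miR-7-5p are the same in both while the 3p side differs.
MIR7-2: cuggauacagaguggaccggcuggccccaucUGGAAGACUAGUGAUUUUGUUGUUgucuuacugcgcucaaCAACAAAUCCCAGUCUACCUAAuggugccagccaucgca
MIR7-3: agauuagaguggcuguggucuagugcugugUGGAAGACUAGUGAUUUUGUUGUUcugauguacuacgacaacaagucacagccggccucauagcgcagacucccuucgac
No 3p arm of MIR7-3 has a row in the counts. The closest stretch of its hairpin differs from miR-7-1-3p at 5 positions and from miR-7-2-3p at 6, so the 3p reads described here are those of MIR7-1 and MIR7-2.

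The libraries held between 12100425 and 24858230 counts assigned to mature miRNAs, and each exposed library was deeper than each unexposed library, so that depth and exposure cannot be told apart. Replicates were clearly different libraries, with a chi-square of 795 per degree of freedom between the exposed and 712 between the unexposed libraries over the tested miRNAs. The neuronal markers summed to between 226991 and 303343 CPM (counts scaled to 1e6 per library) after TMM scaling (trimmed mean of M values, which corrects library size for a few miRNAs that take many reads), with none of the 9 at 0, while the 4 blood markers summed to between 0.0777 and 0.698 CPM, with miR-223-3p and miR-142-3p at 0. Of the other lists, the 6 pluripotency markers summed to 2.42 to 3.89 CPM (miR-367-3p at 0), the 3 oligodendrocyte markers to 75.7 to 116 CPM, the 4 mesenchymal markers to 78.8 to 110 CPM, the 2 endothelial markers to 807 to 1021 CPM and the 3 epithelial markers to 54.0 to 111 CPM. The neuronal sum came mostly from miR-9-5p, with means of 175924 CPM with and 205662 CPM without ethanol. miR-124-3p had means of 4384 CPM with and 2568 CPM without ethanol. The lists held no marker that sets interneurons apart from other neurons, and none was for neural progenitors, so the neuronal sum does not tell neurons from progenitors.

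miR-7-5p, the guide, was the second most abundant of all miRNAs in each of the 4 libraries, after miR-9-5p. With ethanol, replicates 1 and 2 held 1998410 and 3291739 counts of it, and without ethanol 2206514 and 1879196, which was 8.99% and 13.2% against 15.8% and 15.5% of all counts. After TMM scaling the exposed libraries stood at 79240 and 135219 CPM, the unexposed ones at 187048 and 146035 CPM. Both exposed libraries lay below both unexposed libraries, although exposed replicate 2 lay close to unexposed replicate 2 while exposed replicate 1 lay far below all others. The mean was 107230 ± 39583 CPM (SD, n = 2) with ethanol, against 166541 ± 29000 CPM (SD, n = 2) without. On the log2 scale the fold change was -0.64 (standard error 0.35, 95% interval -1.44 to 0.17), which corresponds to 0.644 of the unexposed level. It did not pass the test, as edgeR's quasi-likelihood test gave an unadjusted P of 0.107 and an adjusted p of 0.922. A two-sided exact permutation test gave 0.333, the smallest p that 2 cultures against 2 allow. In bulk RNA, fewer cells that express a miRNA and less of it per cell cannot be told apart.

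**Figure D1:**
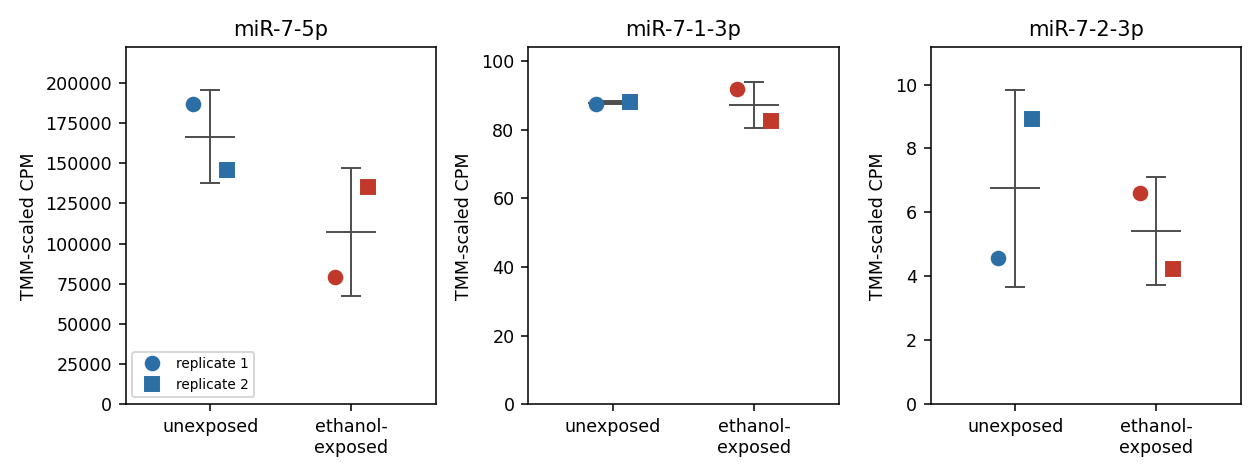
TMM-scaled CPM (vertical axes, which differ) of the 3 miR-7 arms in unexposed (blue) and ethanol-exposed (red) cells. Circles and squares are replicates 1 and 2, and horizontal lines and bars are the mean and SD of 2 libraries. The exposed libraries lie below the unexposed ones for miR-7-5p (79240 and 135219 against 187048 and 146035 CPM), whereas the groups overlap for miR-7-1-3p and miR-7-2-3p.

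miR-7-1-3p, the passenger arm of MIR7-1, stayed within a narrow range after TMM scaling. Before scaling, its share was 104 and 80.9 CPM in exposed replicates 1 and 2, against 74.2 and 93.8 CPM in the unexposed ones. Exposed replicates 1 and 2 held 2320 and 2011 counts, the unexposed ones 1034 and 1135, or 92.0 and 82.6 against 87.7 and 88.2 TMM-scaled CPM. The exposed libraries lay on either side of the unexposed ones. The mean was 87.3 ± 6.64 CPM (SD, n = 2) with ethanol, against 87.9 ± 0.389 CPM (SD, n = 2) without, which is a log2 fold change of -0.010 (standard error 0.22, 95% interval -0.53 to 0.51). edgeR's unadjusted P was 0.964 (adjusted p 0.988), and the exact permutation p was 1. This log2 fold change was also the median of the 863 tested miRNAs, and its sign followed the scaling. With library size only it was 0.14 where the median of all miRNAs was 0.14, and with upper quartile scaling -0.12 where that median was -0.12.

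miR-7-2-3p, the passenger arm of MIR7-2, was the rarest of the 3 arms in every library. Exposed replicates 1 and 2 held 167 and 103 counts, the unexposed ones 54 and 115. Before scaling, its share was 7.51 CPM in exposed replicate 1 (6.46 to 8.74, Wilson's 95% interval, which covers counting error only) and 4.14 CPM in exposed replicate 2 (3.42 to 5.02). Without ethanol the shares were 3.87 CPM (2.97 to 5.05) and 9.50 CPM (7.92 to 11.4). The lowest and the highest of these shares both belonged to unexposed cells, whereas after TMM scaling (6.62 and 4.23 CPM with ethanol, against 4.58 and 8.94 without) the lowest library was exposed replicate 2. The replicates thus differed by more than counting error in each group, 1.56-fold in the exposed and 1.95-fold in the unexposed cells after TMM scaling. The scaled mean was 5.43 ± 1.69 CPM (SD, n = 2) with ethanol, against 6.76 ± 3.08 CPM (SD, n = 2) without. The log2 fold change was -0.32 (standard error 0.40, 95% interval -1.25 to 0.62), with an unadjusted P of 0.454 and an adjusted p of 0.966 from edgeR, and an exact permutation p of 0.667. Without unexposed replicate 2 the log2 fold change turned positive, to 0.21.

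None of the miR-7 arms was thus past the thresholds of the comparison. In edgeR 0 of the 3 had an unadjusted P under 0.05, against 4.52% of all tested miRNAs (1.97% lower and 2.55% higher in exposed cells), and 0 were past a fold change of 2 and that P, against 2.32%. After Benjamini-Hochberg adjustment 0 of the 863 miRNAs were past 0.05 (0%), and 39 had an unadjusted P under 0.05. limma-voom and DESeq2 also called 0 after adjustment, with 31 and 28 at an unadjusted P under 0.05. With no filter on low counts, 6 of 1825 miRNAs were past 0.05 after adjustment in edgeR, and some were in fits without 1 library. The miR-7 arms were not among them. The groups did not overlap, with the exposed cells lower, for 1 of the 3 arms (miR-7-5p), which holds for 14.6% of all tested miRNAs. In either direction the groups were apart for 33.4% of them.

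A lower level by as much as that of miR-7-5p was uncommon among abundant miRNAs. Of the 863 log2 fold changes 45 were more negative, but only 2 of these belonged to the 163 miRNAs with a mean of at least 100 CPM. Those were miR-217-5p (-0.99, standard error 0.41) and miR-216b-5p (-0.93, standard error 0.48), named here after their values were seen. Their groups overlapped, and unexposed replicate 2 was far above the other libraries for both. In either direction, 96 of the 863 log2 fold changes were larger in absolute size. Abundant miRNAs among these included miR-151a-5p (1.22), miR-1260a (0.85) and miR-1260b (0.83), all higher in exposed cells. They were named after their values were seen. The median absolute log2 fold change of the abundant miRNAs was 0.19.

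**Figure D2:**
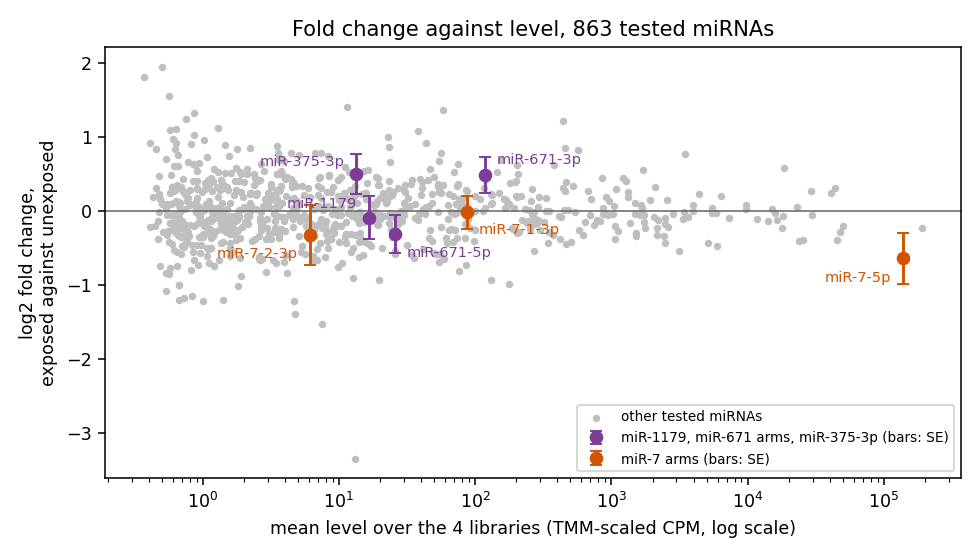
Log2 fold change of exposed against unexposed cells (vertical axis) against the mean TMM-scaled CPM of the 4 libraries (log scale) for the 863 tested miRNAs (grey). The miR-7 arms are orange and miR-1179, the miR-671 arms and miR-375-3p purple, with bars of 1 standard error from edgeR. miR-7-5p lies at -0.64 at the abundant end, and miR-7-1-3p lies at the median of all miRNAs.

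The spread between the exposed cultures was also large for this miRNA. The exposed replicates of miR-7-5p differed by 0.77 on the log2 scale (1.71-fold), whereas the median of the 163 abundant miRNAs was 0.19. A larger difference was seen for 2 of them, miR-1260a (1.21) and miR-1260b (1.16), which were also named after their values were seen and for which exposed replicate 1 was the highest library. Between the unexposed replicates miR-7-5p differed by 0.36 (1.28-fold), against a median of 0.34. The result therefore depended on exposed replicate 1. Without it the log2 fold change of miR-7-5p was -0.30 (edgeR's P 0.610), and without exposed replicate 2 it was -1.07 (P 0.103). Without unexposed replicate 1 it was -0.46 (P 0.0806) and without unexposed replicate 2 it was -0.83 (P 0.00322, adjusted p 0.118). In these fits the lone library of a group was assumed to vary like the other group.

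**Figure D3:**
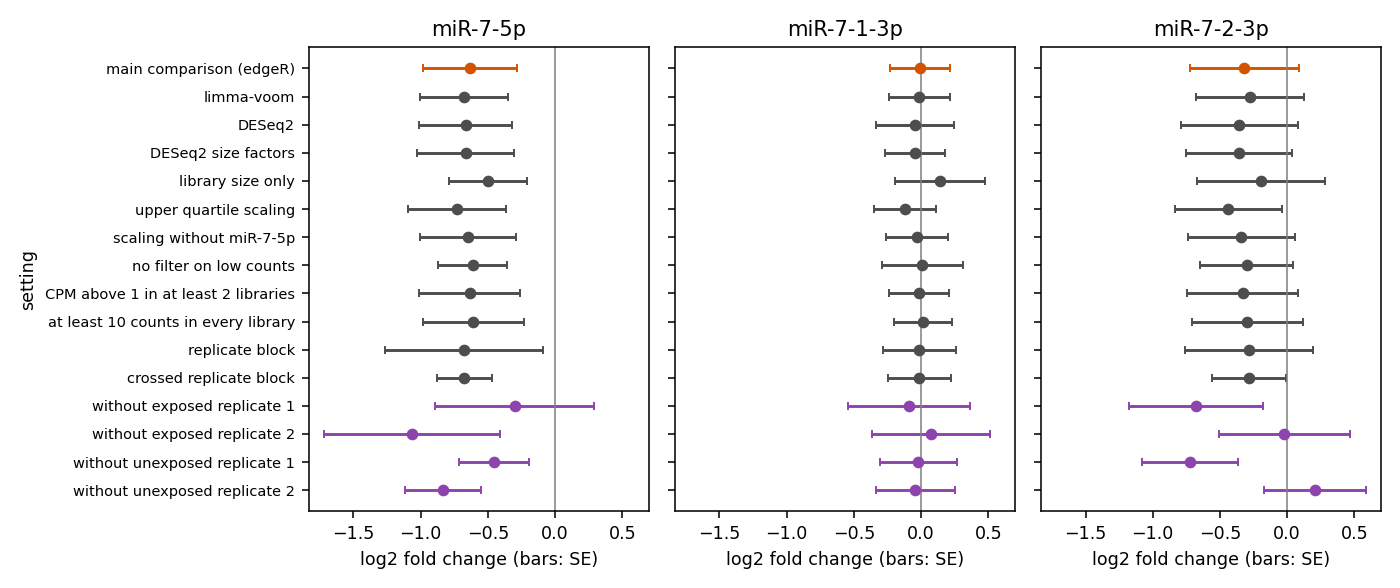
Log2 fold change of the 3 miR-7 arms (horizontal axis, bars of 1 standard error) under each setting (vertical axis). The main comparison is orange, other tests, scalings, filters and designs are grey, and fits without 1 library are purple. miR-7-5p is negative in every setting shown, miR-7-1-3p stays near 0 and miR-7-2-3p turns positive without unexposed replicate 2.

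As miR-7-5p makes up a large part of each library, its own change moves the share of every other miRNA. Scaling factors and library sizes computed without it gave a log2 fold change of -0.65 for miR-7-5p (edgeR's P 0.102), -0.029 for miR-7-1-3p and -0.34 for miR-7-2-3p. The effect on the comparison was therefore small. With library size only, the log2 fold change of miR-7-5p was -0.50 (P 0.107), and relative to the median of all miRNAs it was -0.64 under that scaling, against -0.62 in the main comparison.

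Ratios within a library need no scaling. For each read of the summed 3p arms, exposed replicates 1 and 2 held 804 and 1557 reads of miR-7-5p, the unexposed ones 2028 and 1503. The 3p arms made up 0.124% of the reads of the 3 arms in exposed replicate 1 (0.120 to 0.129%, Wilson's 95% interval), whereas exposed replicate 2 had 0.0642% (0.0615 to 0.0670%). In the unexposed libraries the share was 0.0493% (0.0464 to 0.0523%) and 0.0665% (0.0629 to 0.0703%). Exposed replicate 1 was thus well above the rest, while exposed replicate 2 lay between the unexposed libraries. The mean log2 ratio of 3p arms to guide was -10.13 ± 0.67 (SD, n = 2) with ethanol, against -10.77 ± 0.31 (SD, n = 2) without. The difference of 0.64 had an exact permutation p of 0.667 and fell to 0.17 without exposed replicate 1.

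The arm balance was compared with that of other families in which 1 guide has numbered arms from 2 precursors. There were 14 such families with at least 100 guide counts in every library, and in 11 of these the numbered arms had at least 10 counts in every library. Among the 11, the miR-7 family had the fourth lowest median share of reads on the numbered arms, 0.0653%, where the median family had 0.642%. This filter acts on the counts that make up the share. Among all 14 families miR-7 was 6th lowest, with the dropped miR-103a (0.0015%) and miR-218 (0.0020%) below it. Of the 11, lower medians were found for miR-26a (0.0240%), let-7f (0.0288%) and miR-92a (0.0494%), and miR-128, another brain-enriched family, had 0.0742%. At the other end the numbered arms made up 39.6% for miR-138. Within the 11, miR-7 therefore belonged to a lower group of 5 families whose ranges overlapped in part, below miR-24 at 0.642%. Exposed minus unexposed, the log2 ratio of numbered arms to guide ranged from -0.61 (miR-92a) to 0.64 (miR-7) over the 11 families, with a median of 0.035. The dropped families lay outside this range, at 1.56 (miR-103a), 1.18 (miR-218) and -1.74 (miR-19b). Their numbered arms had only 0 or 1 counts in the lowest library. Reads of different miRNAs also depend on how well each is ligated to the adapters, so these shares are shares of reads and not of molecules.

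**Figure D4:**
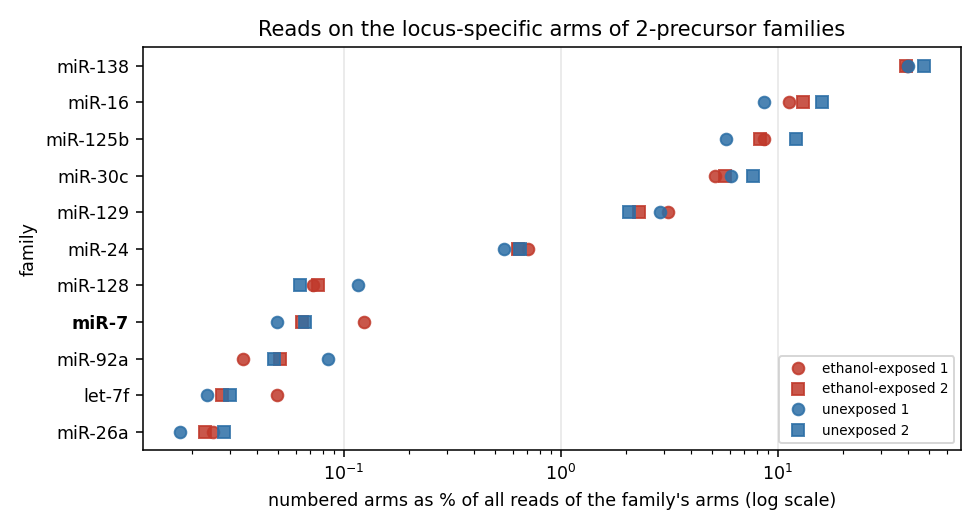
Share of a family's reads that fell on its numbered, locus-specific arms (horizontal axis, percent, log scale) in the 11 families with at least 10 such counts in every library (vertical axis). Red and blue are exposed and unexposed cells, and circles and squares are replicates 1 and 2. The miR-7 family lies between 0.0493% and 0.124%, with exposed replicate 1 the highest of its libraries.

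The 3p arms also tell MIR7-1 and MIR7-2 apart. For each read of miR-7-2-3p, exposed replicates 1 and 2 held 13.9 and 19.5 reads of miR-7-1-3p, the unexposed ones 19.1 and 9.87. Of the 3p reads, miR-7-1-3p thus took 93.3% (92.2 to 94.2%, Wilson's 95% interval) and 95.1% (94.1 to 96.0%) with ethanol, against 95.04% (93.6 to 96.2%) and 90.8% (89.1 to 92.3%) without. Reads of the MIR7-1 arm thus dominated in every library, and the groups overlapped. The mean log2 ratio was 4.04 ± 0.35 (SD, n = 2) with ethanol, against 3.78 ± 0.68 (SD, n = 2) without, a difference of 0.26 with an exact permutation p of 0.667. How the guide reads divide among the genes cannot be read from this share, since the 3p arms may differ in stability and ligation and MIR7-3 has no 3p arm in the table.

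A miRNA gene near MIR7-2 also had counts, and whether it is transcribed together with MIR7-2 was not tested. MIR1179 lies 3627 bases upstream on the same strand, at chr15:88608107-88608197 (GRCh38, GENCODE 29). Exposed replicates 1 and 2 held 439 and 356 counts of miR-1179, the unexposed ones 167 and 255, or 17.4, 14.6, 14.2 and 19.8 TMM-scaled CPM. Its highest library was unexposed replicate 2, as for miR-7-2-3p. Its lowest was unexposed replicate 1, whereas that of miR-7-2-3p after TMM scaling was exposed replicate 2. There were 2.22 to 3.46 reads of miR-1179 for each read of miR-7-2-3p. Its log2 fold change was -0.086 (standard error 0.29), with an unadjusted P of 0.778 in edgeR.

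MIR3529 is annotated on the opposite strand of MIR7-2, at chr15:88611847-88611924. miR-3529-3p is the exact complement of all 24 bases of miR-7-5p, and miR-3529-5p is complementary to 20 bases of miR-7-2-3p.
miR-3529-3p: aACAACAAaaucacuagucuucca
miR-3529-5p: aGGUAGACugggauuuguuguu
No library held a count of miR-3529-3p, which allows a share of up to 0.121 to 0.248 CPM (3 counts), although miR-7-5p had between 1879196 and 3291739 counts. The abundant guide thus left no count on the opposite strand. miR-3529-5p had 7 and 5 counts with ethanol, against 2 and 4 without, and miR-7-2-3p had 20.6 to 28.8 times as many. Both were too rare to be tested.

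miR-671-5p, which directs the cleavage of CDR1-AS, was the other miRNA of the circuit in the counts. It stood at 22.2 and 24.3 TMM-scaled CPM with ethanol, against 26.8 and 30.5 without, which is a log2 fold change of -0.30 (standard error 0.26, unadjusted P 0.271 in edgeR). Its partner arm from the same hairpin, miR-671-3p, stood at 149.6 and 125.7 CPM with ethanol, against 85.8 and 110.4 without, which is a log2 fold change of 0.49 (standard error 0.24, unadjusted P 0.0809 in edgeR). The groups did not overlap for either arm, with opposite directions, where 14.6% of all tested miRNAs were lower and 18.8% higher without overlap. For each read of miR-671-5p, the exposed replicates held 3575 and 5570 reads of miR-7-5p, the unexposed ones 6983 and 4794, and this ratio overlapped. miR-375-3p, known with miR-7 for its level in endocrine cells, was rare here. It stood at 15.7 and 15.8 CPM with ethanol, against 11.4 and 10.7 without, which is a log2 fold change of 0.51 (standard error 0.27, unadjusted P 0.0940 in edgeR). Of these 4 tested neighbours and partners, 0 had an unadjusted P under 0.05, against 4.52% of all tested miRNAs.

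Against other neuronal miRNAs, miR-7-5p was compared within each library, without scaling. For each read of miR-124-3p, which marks differentiated neurons, exposed replicates 1 and 2 held 14.7 and 40.2 reads of miR-7-5p, the unexposed ones 63.5 and 66.7. Per read of miR-128-3p the numbers were 1.63 and 2.81 with ethanol, against 6.37 and 2.99 without. Per read of miR-9-5p they were 0.497 and 0.703 with ethanol, against 0.736 and 0.928 without. The ratio was lower in both exposed than in both unexposed libraries for 8 of the 9 neuronal miRNAs, and overlapped for miR-218-5p. All 9 ratios share the counts of miR-7-5p, which were themselves lower without overlap after scaling, so they are not separate observations. The same held for the ratio to 53.9% of the 862 other tested miRNAs, and to 72.2% of the 162 others with a mean of at least 100 CPM. The differences of the mean log2 ratios ranged from -1.42 (miR-124-3p) to -0.45 (miR-218-5p). That of miR-124-3p held a change in the other direction, since miR-124-3p itself stood at 4384 ± 1445 CPM (SD, n = 2) with ethanol, against 2568 ± 536 CPM (SD, n = 2) without, which is a log2 fold change of 0.77 (standard error 0.30, unadjusted P 0.0316 and adjusted p 0.922 in edgeR). It was the only 1 of the 9 neuronal miRNAs with an unadjusted P under 0.05, and the part of a different share of neurons in the miR-7-5p values was not tested.

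**Figure D5:**
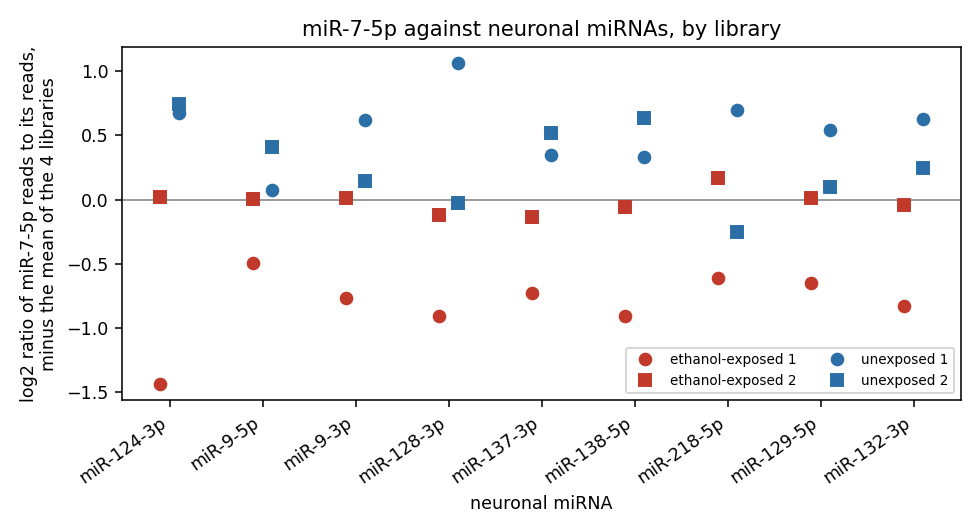
Log2 ratio of miR-7-5p reads to the reads of each of 9 neuronal miRNAs (horizontal axis) within a library, minus the mean of the 4 libraries (vertical axis). Red and blue are exposed and unexposed cells, and circles and squares are replicates 1 and 2. The exposed libraries lie below the unexposed ones for 8 of the 9, and exposed replicate 1 is the lowest library for all. The same order holds for 53.9% of all other tested miRNAs and 72.2% of those of at least 100 CPM. Of the neuronal miRNAs shown, miR-137-3p and miR-138-5p are under 100 CPM.

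By level, miR-7-5p stood between miR-9-5p and a group of miRNAs of similar abundance. For each read of miR-7-5p, exposed replicates 1 and 2 held 2.01 and 1.42 reads of miR-9-5p, the unexposed ones 1.36 and 1.08. In the unexposed cells their scaled levels lay within the spread between replicates, as miR-9-5p was at 205662 ± 68348 CPM (SD, n = 2) there. The third place went to miR-99a-5p, let-7f-5p, let-7g-5p and miR-128-3p in 1 library each, and miR-7-5p had 1.55 and 2.62 times its reads with ethanol, against 2.95 and 2.99 times without. By mean level the next were miR-26a-5p (46960 ± 3877 CPM with and 53761 ± 8402 CPM without ethanol, SD, n = 2) and let-7f-5p (42699 ± 12468 CPM with and 51677 ± 13040 CPM without ethanol, SD, n = 2), each below the lowest library of miR-7-5p. miR-7-1-3p ranked 172nd by mean level, and miR-7-2-3p ranked 438th. Next to them in that order, and so of like level by choice, were miR-628-5p and miR-219a-2-3p for the former and miR-1292-5p and miR-155-5p for the latter.

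The miRNAs whose pattern over the 4 libraries was most like that of miR-7-5p were found among the 163 with a mean of at least 100 CPM, by the root mean square difference of log2 CPM after each was centred on its own mean. The closest was miR-146b-5p, at 222 and 361 TMM-scaled CPM with ethanol, against 443 and 345 without, with a difference of 0.11, where the median over the 162 others was 0.48. It was followed by miR-1-3p (0.17), miR-320a-3p (0.17), let-7i-5p (0.18) and miR-191-5p (0.19). Each of the 5 was lowest in exposed replicate 1 and highest in unexposed replicate 1, as was miR-7-5p. Their log2 fold changes were between -0.54 and -0.40, with unadjusted P values of 0.0830 to 0.236 in edgeR. The 5 were picked for their likeness over these same libraries, so their shared order and direction follow from the choice. With 4 libraries, likeness of this kind describes these libraries only.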

How the data were processed

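Small RNA was measured in 4 libraries from H1-derived cortical interneurons, 2 with and 2 without ethanol. The authors prepared libraries with a NEBNext small RNA kit, ran the CAP-miRseq pipeline on the reads and deposited raw counts per mature miRNA, not normalized. The submitters' processing notes name hg19. The table carries no coordinates, the pipeline's version, the miRNA release and the handling of reads with several matches are not given in the sources used here, and positions were taken from RefSeq (GRCh38.p14) and GENCODE 29 (GRCh38) by name.

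Groups came from the sample titles. The members and lists were chosen with earlier results of these data known. The deposited counts were tested with edgeR 4.0.16 in R 4.3.3 (filterByExpr at its minimum count of 10 and total of 15, TMM, quasi-likelihood test without covariates, Benjamini-Hochberg adjustment over all 863 miRNAs tested). Standard errors came from the F statistic and intervals from its degrees of freedom. Thresholds were an unadjusted P of 0.05 and a fold change of 2, as in the plots of miRNAs in the study. log2 CPM used a prior count of 0.5. Ratios within a library were compared by exact permutation tests (scipy 1.17.1), which with 2 libraries against 2 cannot go below 0.333. As alternatives, DESeq2 1.42.0 (no independent filtering) and limma-voom from limma 3.58.1 were run, as were other scalings and filters, a replicate block and leaving out each library. The scripts were tested on simulated counts.

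miRNAs were named by rule: the arms, miRNAs of their loci and circuit, those sharing a seed, families with numbered arms, the 5 with the most similar pattern, miR-375-3p, and neighbours in level. Others are said to have been named after their values were seen. Depth was 12100425 to 24858230 counts per library, and 3 counts were taken as the smallest number that could be told from 0.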

Additional observations from a re-analysis of the deposited data

How the results depend on the processing

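The log2 fold change of miR-7-5p was negative under all 11 alternatives in test, scaling, filter and design, between -0.73 and -0.50, with edgeR's, limma's or DESeq2's unadjusted P between 0.0109 and 0.281 and the adjusted p between 0.635 and 1.00. P fell under 0.05 with no filter on low counts (-0.61, P 0.0174) and with the crossed replicate block (-0.68, P 0.0109). Leaving out each library in turn gave -1.07 to -0.30 for miR-7-5p, -0.091 to 0.072 for miR-7-1-3p and -0.72 to 0.21 for miR-7-2-3p, whose P was 0.0441 without unexposed replicate 1. The sign of miR-7-1-3p turned with library size only (0.14), no filter (0.0069) and at least 10 counts in every library (0.014). The number of miRNAs past both thresholds was 20, and it was 10 with DESeq2, 49 with no filter, 12 with CPM above 1 in at least 2 libraries, 11 with at least 10 counts in every library and 10 to 44 without 1 library. The cause was not tested. Leaving out a library gave 0.17 to 1.12 for the log2 ratio of 3p arms to guide and -0.22 to 0.74 for that of miR-7-1-3p to miR-7-2-3p.

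With the replicate number as a block the log2 fold changes were -0.68 (P 0.281), -0.012 and -0.28 for miR-7-5p, miR-7-1-3p and miR-7-2-3p in edgeR, the ratios differed by 0.64 and 0.26, and 16 miRNAs were past both thresholds, with 25 against 39 at a P under 0.05. The differences between replicates had a correlation of -0.186 between the groups across the 863 miRNAs, so no pairing by number was seen. This cannot settle whether the cultures were made in pairs, which the labels and methods do not state. The crossed replicate block, chosen after seeing the data, put 21 past both thresholds and 59 under a P of 0.05. Low counts limit miR-3529-5p, and the spread between 2 cultures limits miR-7-5p and miR-7-2-3p.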
